A study of Mus musculus with 480 samples.

Results

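The cells described here are the alveolar type 2 (AT2) cells of the mouse line labelled Sftpc-TD, taken as every column of the deposited count table whose sample carries the source name Sftpc-TD and the cell sub-type AT2. Of 480 annotated cells, 60 on plate 4 and 89 on plate 5 met this rule. The study sequenced single mouse lung cells of 3 reporter lines, each cell being 1 sample: epithelial cells were sorted singly from enzyme-digested lungs, their transcripts amplified by PCR and made into Nextera XT libraries, and reads counted per gene. The Sftpc-TD line has the genotype Sftpc-DreER;R26-RSR-tdtomato, in which the surfactant protein C promoter drives a drug-inducible Dre recombinase that switches on a red fluorescent reporter. A line labelled Scgb1a1-TD (Scgba1a1-CreER;R26-tdtomato) and one labelled BASCs-Tracer, which joins Sftpc-DreER and Scgba1a1-CreER with the reporter R26-RSR-LSL-tdtomato, supplied the few cells set beside them. The sub-types are the authors' annotation, and no age, sex, treatment or animal was given, so the cells may come from 1 mouse or from several. Each plate was therefore taken as 1 set of cells: ranges over cells are descriptions, and no p-value was calculated.

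AT2 cells are the cuboidal secretory cells of the alveolus. They make, store in lamellar bodies and secrete pulmonary surfactant, a mixture of phospholipids with the surfactant proteins that lowers surface tension in the air space. They also act in innate defence, carry class II antigen presentation molecules, and serve as progenitors of the flat alveolar type 1 (AT1) cells that exchange gas.

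The 60 cells of plate 4 held 434535 to 2012605 reads assigned to genes (median 1088336), and the 89 cells of plate 5 held 3379 to 3781974 (median 1294203). Per cell, 3077 to 5890 genes (median 4477) had a read on plate 4 and 986 to 7251 (median 4732) on plate 5. Mitochondrial genes took a median of 5.05% of a cell's reads on plate 4 and 3.59% on plate 5. Levels are given as CPM, a gene's reads per 1000000 of the cell's reads assigned to genes, and a pooled CPM sums the reads of all cells first. Reads were PCR products, with no molecular identifiers described, so the 95% exact intervals given below cover counting error only. No pair of cells had identical counts.

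After the values were seen, 8 cells were set apart. Wells F12 and G7 of plate 4 and wells F1 and H3 of plate 5 had summed levels of 18 AT1 markers of 27167, 29839, 59284 and 49183 CPM, against at most 8605 CPM in any other cell. Well H9 of plate 4 and well D3 of plate 5 had summed levels of 14 endothelial markers of 8308 and 7534 CPM, against at most 1003 CPM elsewhere. Well F11 of plate 5 carried Scgb1a1, the main secretory protein gene of club cells, at 50094 CPM, and well H12 of plate 5 held only 3379 reads. These cells remain in all values below unless their removal is stated. No doublet caller was run, and whether a well held more than 1 cell was not tested.

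The 5 markers of the type lay above the ciliated background in most cells, and Sftpc, Lamp3 and Slc34a2 did in every cell but 1. Sftpc, which encodes surfactant protein C (ENSMUSG00000022097, chromosome 14, 70520949 to 70524081, GRCm38), ranged over 80130, 170778 and 293683 CPM (lowest, median, highest) on plate 4. On plate 5 it ranged over 2656, 152653 and 228457 CPM. The exception was well F1 of plate 5, with Sftpc at 2656, the lysozyme gene Lyz2 at 1431, Slc34a2 at 175, Lamp3 at 40.4 and Il33 at 23.6 CPM. Each of these lay at or below the highest value in 24 ciliated cells of the Scgb1a1-TD line, which serve here as a type that should lack AT2 genes (6291, 2675, 308, 60.9 and 27.9 CPM). The 6 ciliated cells on plate 4 reached at most 969, 439, 63.3, 8.92 and 4.15 CPM, each below the level of well F1. The same well had the AT1 genes Ager at 19624 and Cav1 at 6308 CPM, so it goes against its label. The next lowest Sftpc level, in well A6 of plate 5, was 56797 CPM, above every ciliated cell.

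The remaining markers differed in how evenly the cells carried them. Lyz2 (ENSMUSG00000069516, chromosome 10, 117277331 to 117282321) ranged over 7675, 80156 and 144991 CPM on plate 4 and 1431, 72805 and 146349 CPM on plate 5, with 5 cells under 10000 CPM. Slc34a2, the sodium-phosphate cotransporter gene of the apical membrane (chromosome 5, 53038081 to 53071664), ranged over 2079, 10717 and 21220 CPM on plate 4 and 175, 11381 and 20570 CPM on plate 5. Lamp3, a lamellar body membrane protein gene (chromosome 16, 19653378 to 19706375), ranged over 276, 1509 and 3851 CPM and over 40.4, 2035 and 3998 CPM. The plates overlapped almost fully for all of these.

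Il33, an alarmin cytokine gene (chromosome 19, 29925114 to 29960718), was the least even of the 5 markers. It ranged over 0.825, 405 and 3020 CPM on plate 4 and over 2.33, 599 and 6787 CPM on plate 5. Every cell had a read, but 10 cells of plate 4 and 12 of plate 5 lay at or below the highest ciliated level of 27.9 CPM. That level is the extreme of 24 ciliated cells with a median of 1.99 CPM. The 6 ciliated cells on plate 4 reached at most 4.15 CPM, and fewer AT2 cells lay at or below that. In cells thinned to 100000 reads (1 shallower cell was left out), Il33 was seen in 90% of those on plate 4 and 93.2% on plate 5, against 37.5% of ciliated cells (median 990495 reads). Its coefficient of variation (CV, the SD over the mean) across cells was 1.04 on plate 4 and 1.22 on plate 5, against 0.235 and 0.232 for Sftpc.

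**Figure D1:**
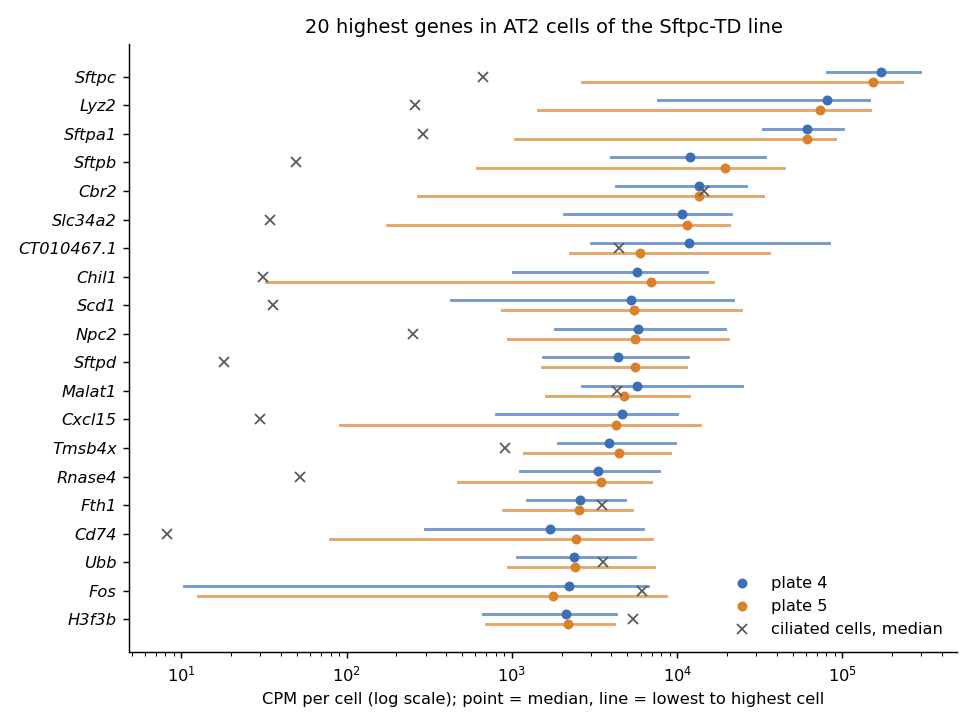
The 20 genes with the highest pooled CPM in the AT2 cells: the x axis is CPM per cell on a log scale, points are medians and lines run from the lowest to the highest cell of plate 4 (60 cells) and plate 5 (89 cells), and crosses are medians of 24 ciliated cells of the Scgb1a1-TD line. Sftpc is highest on both plates, the long lines to the left on plate 5 for Sftpc, Lyz2, Sftpa1, Sftpb and Slc34a2 end at well F1, and Cbr2 is as high in ciliated cells.

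Few genes took a large share of each cell's reads. The 20 most abundant genes held 40.5% of all reads, and the genes of surfactant proteins A1, B, C and D together held 24.6%. In single cells the surfactant proteins took 0.631% of reads in well F1, 11.3% in the next lowest cell, 24.4% in the median cell and 38.5% in the highest. Levels were also set per kilobase of exon, counting every annotated exon of a gene, which allows only a rough comparison between genes. Per kilobase, Sftpc stood at 155356 CPM, Lyz2 at 56686 and the collectin gene Sftpa1 at 21356. On that scale Cbr2, a carbonyl reductase gene, came next at 10489, then Sftpb at 9433, and the second collectin gene, Sftpd, stood at 2254 CPM per kilobase. In pooled reads these were 160638 CPM for Sftpc (95% interval 160581 to 160694), 74599 for Lyz2, 61078 for Sftpa1, 18563 for Sftpb and 5448 for Sftpd.

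The other genes among the 20 were of mixed kinds. Secreted or lumenal proteins of the alveolus were coded by Chil1, a chitinase-like protein gene (7030 CPM pooled), Npc2, a lumenal cholesterol carrier gene (6413), Cxcl15, the lungkine chemokine gene (4636), and Rnase4, a secreted ribonuclease gene (3432). Scd1, the stearoyl-CoA desaturase gene, stood at 6799 and Cd74, the class II invariant chain gene, at 2523 CPM. Cbr2 stood at 13919 CPM pooled, but its median in ciliated cells was 14623 CPM, so it did not mark AT2 cells here. Malat1, a nuclear long noncoding RNA, the housekeeping genes Tmsb4x, Fth1, Ubb and H3f3b, the immediate early gene Fos and CT010467.1, a ribosomal RNA entry of chromosome 17, made up the rest with Slc34a2. CT010467.1 had a median of 11817 CPM on plate 4 and 5959 on plate 5.

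Sftpa1 was more even over cells than Sftpb on plate 4 (CV 0.27 against 0.44), while on plate 5 they were close (0.29 against 0.33). Sftpa1 ranged over 33076, 61116 and 100377 CPM on plate 4 and over 1040, 60824 and 90713 CPM on plate 5. Sftpb, whose product is needed to form lamellar bodies and the surface film, ranged over 3963, 12022 and 34007 CPM on plate 4 and over 611, 19508 and 44089 CPM on plate 5. The ranges overlapped, but the plate 5 median was the higher, and the pooled ratio of plate 4 to plate 5 was -0.63 on the log2 scale. Both genes are known targets of NKX2-1, the lung homeodomain factor, which binds a core of CTCAAG, and the 250 bases before their RefSeq starts (GRCm38.p6) are shown with that word in capitals because these promoters drive 2 of the 4 genes with the highest pooled CPM. Sftpa1 lies on the plus strand (window chr14:41131538-41131787) with the word at 166 to 161 bases before the start, and Sftpb on the plus strand (chr6:72304360-72304609) with it at 100 to 95 and 15 to 10.
Sftpa1: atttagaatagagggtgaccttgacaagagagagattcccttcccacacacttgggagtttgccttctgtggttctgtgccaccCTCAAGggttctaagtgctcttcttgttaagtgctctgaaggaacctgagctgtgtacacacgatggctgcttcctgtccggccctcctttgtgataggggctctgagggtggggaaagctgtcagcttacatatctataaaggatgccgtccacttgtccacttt
Sftpb: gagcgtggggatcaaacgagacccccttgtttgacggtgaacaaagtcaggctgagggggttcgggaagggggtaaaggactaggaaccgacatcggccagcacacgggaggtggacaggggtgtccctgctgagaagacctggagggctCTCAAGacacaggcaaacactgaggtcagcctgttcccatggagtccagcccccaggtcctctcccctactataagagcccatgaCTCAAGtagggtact
CTCAAG or its reverse complement CTTGAG occurred in 13.3% of 32851 RefSeq windows of this length, so its presence is a description only. Nkx2-1 itself stood at 295 CPM pooled and had a read in 96.6% of cells.

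The genes that process and package surfactant were measured broadly. Of 22 listed genes 21 were matched, and 19 of them reached 5 CPM pooled; their summed level ranged over 13898, 27449 and 49458 CPM on plate 4 and over 10347, 30339 and 48788 CPM on plate 5. With Slc34a2, Npc2 and Lamp3, the proteases that mature surfactant proteins were high: Napsa (napsin A) stood at 2044 and Ctsh (cathepsin H) at 1723 CPM pooled. Lpcat1, which remodels surfactant phosphatidylcholine, stood at 1591 CPM. Abca3, the lamellar body lipid transporter gene, was much lower at 258 CPM, and 27.5 CPM per kilobase, and had a read in 97.3% of cells.

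Lipid synthesis genes varied more between cells than the surfactant proteins did. The 27 genes of fatty acid and phosphatidylcholine synthesis, 25 of them at 5 CPM or more, summed to 3143, 10669 and 28049 CPM on plate 4 and to 3409, 11814 and 33423 CPM on plate 5. Scd1 made up most of that sum and ranged over 429, 5237 and 21752 CPM on plate 4 and over 869, 5450 and 24419 CPM on plate 5. Its CV was 0.81 and 0.72. Elovl1, a fatty acid elongase gene (1179 CPM pooled), Fasn, the fatty acid synthase gene (799), and Chka, the choline kinase gene (616), followed. The sterol list of 21 genes (19 at 5 CPM or more) was lower, with a median sum of 1385 CPM on plate 4 and 1388 on plate 5, and held Acat2 at 182 and Hmgcs1 at 161 CPM pooled. Individual sterol genes were intermittent: Sqle, the squalene epoxidase gene, had a read in 68.5% of cells.

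Among host defence genes (15 of 18 at 5 CPM or more), Lyz2, Sftpa1, Chil1 and Sftpd were followed by Hc, the complement C5 gene, at 1907 and Cd36, a scavenger receptor gene, at 1793 CPM pooled. Lyz1, which encodes the second mouse lysozyme and lies beside Lyz2 (chromosome 10, 117287797 to 117292868), behaved unlike any of these. Its pooled level was 1742 CPM, but the median cell had 2.94 CPM on plate 4 and 6.92 on plate 5. The highest cell reached 47366 CPM on plate 4 and 64767 on plate 5. Over both plates 25 cells passed 100 CPM and 11 passed 1000 CPM, 4 on plate 4 and 7 on plate 5.

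The 5 highest cells held 87.3% of all Lyz1 reads. They were well F8 of plate 5 (64767 CPM, beside 59707 CPM of Lyz2), well F6 of plate 4 (47366 beside 45186), and wells G9 (31599 beside 47107), B9 (28572 beside 37124) and E5 (22726 beside 44320) of plate 5. In these cells Lyz1 stood at 51.3% to 108.5% of Lyz2, whereas the median over all cells was 0.00741%. The sixth cell, well B6 of plate 4, had 6980 CPM, so the values left a wide gap below the fifth. None of the 5 was among the cells set apart. Lower levels followed plate rows. On plate 5 every cell of row F, the row of well F8, had 20.7 CPM or more, with F9 at 608 and F12 at 388. On plate 4 every cell of row F, the row of well F6, had 33.4 CPM or more. The plate medians were 6.92 and 2.94 CPM. Whether reads passed between wells was not tested, so cells past 100 CPM need not all express Lyz1. The share of cells with a Lyz1 read, at 100000 reads per cell, was 38.3% on plate 4 and 47.7% on plate 5 against 45.8% of ciliated cells, whose highest level was 53.3 CPM, and is read as background. Transcripts of the genes share 16.1% of their 50-base words, so some reads could be assigned to either, and how many was not tested.

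Because this contrast concerns neighbouring copies, a part of the 2 promoters where they differ is shown from RefSeq (GRCm38.p6), both on the minus strand, bases 130 to 51 before the start, with differing bases in capitals (Lyz1 chr10:117292919-117292998, Lyz2 chr10:117282323-117282402).
Lyz1: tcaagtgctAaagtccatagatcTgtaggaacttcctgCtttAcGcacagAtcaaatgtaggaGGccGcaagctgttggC
Lyz2: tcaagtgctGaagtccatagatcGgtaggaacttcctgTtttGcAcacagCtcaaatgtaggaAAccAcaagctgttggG
Of the 130 bases before the start that were compared, 120 were identical. All 10 differences among them lay in the stretch shown, with 0 in the nearest 50. Bases further upstream were not compared.

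**Figure D2:**
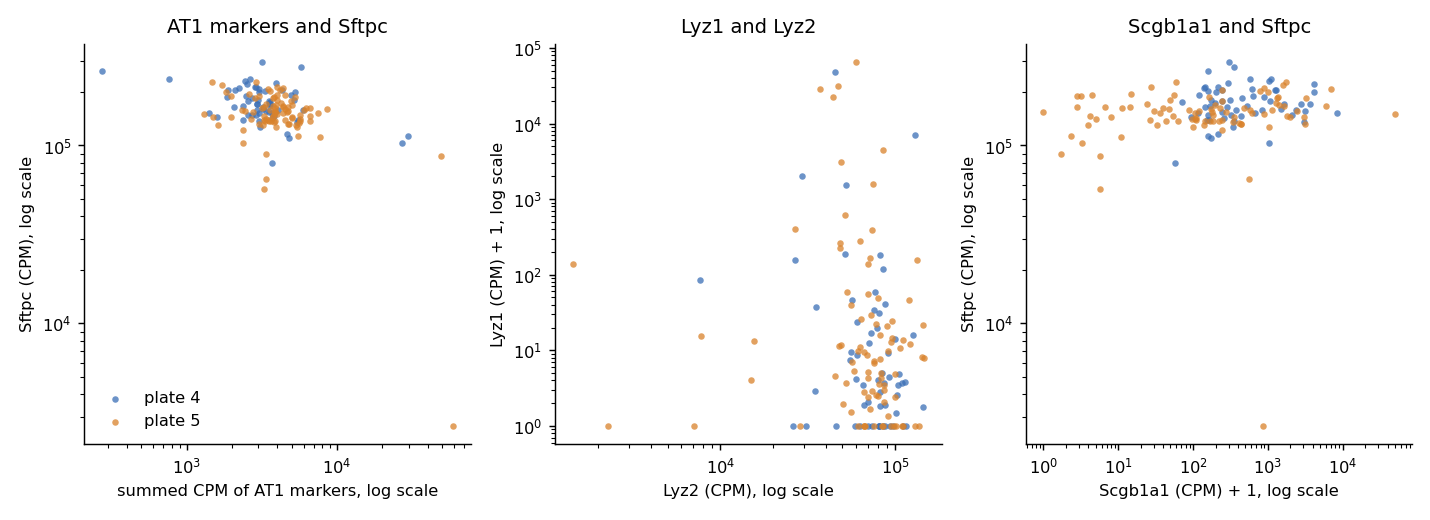
Each point is 1 AT2 cell, blue on plate 4 and orange on plate 5, with CPM on log scales (1 CPM added for Lyz1 and Scgb1a1): Sftpc against the summed AT1 markers, Lyz1 against Lyz2, and Sftpc against Scgb1a1. The 4 cells with AT1 sums from 27167 to 59284 CPM stand at the right of the first panel, the 5 cells with Lyz1 at 22726 CPM or more at the top of the second, and well F11 of plate 5 at the right of the third.

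The most abundant antigen presentation genes had a read in nearly every cell, at very different levels, and the others in fewer cells. Of 8 class II genes 7 reached 5 CPM, and their sum ranged over 389, 2810 and 10282 CPM on plate 4 and over 208, 3699 and 11087 CPM on plate 5. Cd74 ranged over 299, 1702 and 6186 CPM on plate 4 and over 79.2, 2451 and 7084 CPM on plate 5, and at 100000 reads it was seen in every cell of both plates against 66.7% of ciliated cells. The peptide-binding chains H2-Ab1 (556 CPM pooled), H2-Aa (494) and H2-Eb1 (139.3) had a read in 98.7%, 98.7% and 81.9% of cells. H2-Aa and H2-Ab1 each ran from under 2 CPM in the lowest cell of a plate to 1686 CPM or more in the highest. Class I genes (7 of 9 at 5 CPM or more) were led by H2-D1 (1929 CPM pooled), B2m (806) and H2-K1 (657), heavy and light chains that may share reads with related copies.

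Cytokine genes were few. Of 20 listed, 10 reached 5 CPM, and Cxcl15 and Il33 held most of the sum. Cxcl1, a neutrophil chemokine gene, stood at 109.9 CPM with a read in 52.3% of cells, and Csf2, the GM-CSF gene, at 14.4 CPM with a read in 37.6%. The interferon response list had 14 of 22 genes at 5 CPM or more with a median sum of 382 and 421 CPM on plates 4 and 5, led by Ifi27 (143.7) and Irf1 (108.4 CPM), while Isg15, a classical interferon-induced gene, had a read in 7.38% of cells.

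Transcription factors of the alveolar epithelium were read in most cells. Of 25 listed, 20 reached 5 CPM, and the sum ranged over 521, 2918 and 5339 CPM on plate 4 and over 1637, 3374 and 5453 CPM on plate 5. Etv5, an FGF-responsive factor of AT2 maintenance, led at 936 CPM pooled with a read in every cell, followed by Id2 (439), Nkx2-1 (295) and Tfcp2l1 (233 CPM). Cebpa, an AT2 differentiation factor, stood at 167 CPM, and Sox9, a factor of distal lung progenitors, had no read in any cell; a count of 0 here allows a share of up to 2.01% of cells with a read, taking 3 cells of the total as the limit. Growth factor and Wnt pathway genes (28 of 35 at 5 CPM or more) were led by Fgfr2 (432), Wls (330), Ctnnb1 (272) and Hbegf (247 CPM), while the Wnt target Axin2 stood at 5.9 CPM with a read in 21.5% of cells. Ion and water transport genes after Slc34a2 were led by Atp1b1 (1496), Aqp5 (508) and Kcnj15 (311 CPM).

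Signs of acute response differed widely between cells. The immediate early list (27 of 28 genes at 5 CPM or more), which responds within minutes to stimuli and to tissue dissociation, summed to 1616, 12759 and 25230 CPM on plate 4 and to 1520, 13863 and 35913 CPM on plate 5. Ciliated cells had 31444 CPM pooled for the same list. Fos ranged over 10.3, 2221 and 6685 CPM on plate 4 and over 12.7, 1778 and 8504 CPM on plate 5, and Dusp1 (1645), Egr1 (1640) and Jun (1432 CPM pooled) followed. The heat shock list, with 13 of 13 genes at 5 CPM or more, had a median sum of 3242 CPM on plate 4 and 3474 on plate 5, led by Hspa8 (1154), Hsp90aa1 (1036), Hsp90ab1 (487) and Dnaja1 (360 CPM). Hspa1a and Hspa1b, the strongly inducible members, were under 1 CPM in the median cell and reached 2061 and 1117 CPM in the highest. The unfolded protein response list (20 of 21), a sign of secretory load, was led by Herpud1 (929), Hspa5 (888), Pdia3 (505) and Dnajb9 (505 CPM).

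Other programmes were low. Circadian clock genes (15 of 19 at 5 CPM or more) had a median sum of 1052 and 1271 CPM, led by Nr1d1 (161) and Per3 (160), and the glucocorticoid and hypoxia list (14 of 17) one of 1078 and 1200 CPM, led by Cdkn1a (232) and Mt1 (143.9). Of 25 cell cycle genes 8 reached 5 CPM, led by Stmn1 (117.1), Ccnd1 (87.2), Hmgb2 (83.99) and Pcna (64.3). The proliferation genes Mki67 and Top2a had a read in 4.70% and 1.34% of cells, at 0.2 and 1.1 CPM pooled.

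Markers of other cell types were low, with exceptions, in reads pooled over all cells, those set apart included. Epithelial markers (9 of 10 at 5 CPM or more) were led by Cldn3 (619), Krt18 (353) and Krt8 (329 CPM). Basal, neuroendocrine and erythroid lists had 0 of 7, 0 of 9 and 0 of 7 matched members at 5 CPM, and the leukocyte gene Ptprc stood at 0.0208 CPM pooled. The leukocyte list had 1 of 11 members there, Lcp1 at 131.9 CPM, the alveolar macrophage list 4 of 17, led by Lpl at 82.2, the mesenchymal list 2 of 14, Inmt at 81.2 and Gpx3 at 52.4, and the endothelial list 9 of 14, led by Esam at 123.7 CPM. The ciliated list had 4 of 17, led by Sec14l3 at 561 CPM, and its highest sums, 4799 to 15693 CPM, were in the 4 cells with high AT1 markers.

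Some AT1 markers were not absent from ordinary AT2 cells. In reads pooled over all cells, those set apart included, 17 of 18 listed reached 5 CPM. They were led by Ager (2000), Cldn18 (1072), Aqp5 (508) and Emp2 (347 CPM pooled). In the cells not set apart Ager had a median of 1309 and a highest value of 4765 CPM, and Cav1, a caveolin gene, a median of 0 and a highest value of 556. There Cldn18 and Aqp5 had medians of 976 and 458 CPM, but Pdpn, Rtkn2, Akap5, Hopx and Igfbp2 had medians of 0. The median cell not set apart had 5 of the 18 markers at 100 CPM or more. The wells set apart for AT1 markers had Ager at 10142 (F12 of plate 4), 14153 (G7 of plate 4), 19624 (F1 of plate 5) and 22885 CPM (H3 of plate 5). In each of them 13 or 14 of the 18 markers exceeded every cell not set apart. These wells were chosen by the sum of the same 18 markers, Ager among them. Their lack of overlap in these markers is therefore no separate support. Wells F12, G7 and H3 kept Sftpc at 102800, 112517 and 87747 CPM, whereas well F1 had 2656.

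Scgb1a1 was the club cell gene of most interest, since a line of the study is driven by it. It ranged over 56.2, 332 and 8424 CPM on plate 4 and over 0, 168 and 50094 CPM on plate 5, and every cell but 1 had a read. Plate 4 also held Scgb1a1-TD cells in its columns 1 to 4, and 6 ciliated cells there ranged over 92.9, 249 and 682 CPM. At or below 682 CPM lay 41 of 60 cells on plate 4 and 66 of 89 on plate 5, and on plate 4 their share with a read is read as background. The level of 682 CPM comes from plate 4 alone; on plate 5, which held no Scgb1a1-TD cell, 31 cells lay below 56 CPM, under every AT2 cell of plate 4. The remaining 19 and 23 cells lay above it. Well F11 of plate 5, at 50094 CPM, also carried Sftpc at 149454 and Lyz2 at 143575 CPM. The other club genes were led by Hp (731) and Nupr1 (253 CPM pooled) after Cbr2, and 11 of 21 reached 5 CPM.

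**Figure D3:**
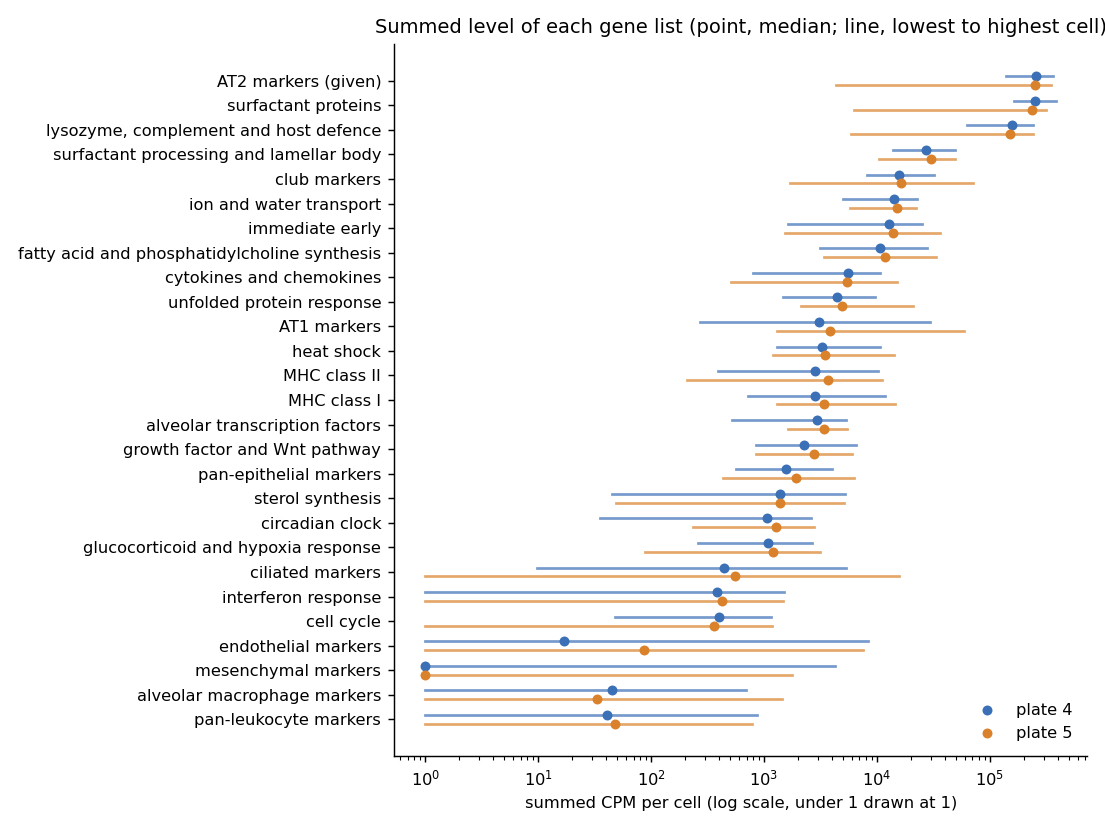
Summed CPM per cell of 27 gene lists on a log scale (sums under 1 CPM drawn at 1), points being medians and lines the lowest to the highest cell of plate 4 (60 cells) and plate 5 (89 cells); lists with no member at 5 CPM are left out. Surfactant proteins have a median near 252677 CPM on plate 4 and 238185 on plate 5, MHC class II sums spread from 208 to 11087 CPM, and the AT1 and endothelial lines reach far right of their medians through the cells set apart.

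Detection followed abundance and depth. A read in every cell was found for 0.274% of the listed genes, and 40 genes had 5 reads or more in every cell. Well H12 of plate 5, with its 3379 reads, weighed on these counts: without it 232 genes had a read in every cell. At 100000 reads per cell the median cell showed 3002 genes on plate 4 and 3181 on plate 5, against 4286 in ciliated cells. Between 20% and 80% of cells on both plates had a read for 5078 genes. Within that range the highest levels among cells with a read belonged to 10 genes, among them Tmed9, a vesicle cargo receptor gene (median 145.7 CPM in cells with a read, seen in 60% of plate 4 and 67.4% of plate 5), Fdft1 of sterol synthesis, Pdlim2, the mitochondrial Idh3g, Serpinb6b, Snrpb, Psmd8, Rpn1 and Dhrs7. Dhrs7, the last of these 10, stood at 124.2 CPM, so all 10 lay within a narrow band.

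Spread between cells was measured per plate as the CV of CPM over cells, and its excess as log2 CV minus the trend of log2 CV on log2 mean level across 2197 genes. The excess agreed in rank between plates over genes (Spearman rho 0.63, genes not being independent). The excess of Sftpc was 0.04 on plate 4 and 0.09 on plate 5, that of Sftpa1 -0.06 and 0.16, that of Sftpb 0.26 and 0.05 and that of Sftpd 0.02 and 0.02. Scd1 (0.92 and 0.90), Il33 (0.53 and 0.94) and Lyz2 (0.43 and 0.74) were higher.

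In 13 genes the excess was 1 or more on both plates. Lyz1 was the widest, at 3.32 and 3.20 (CV 6.27 and 4.69). Of the 13, 5 remained past 1 on both plates without the 8 cells set apart: Lyz1 (3.32 and 3.23), Ccn1, a matricellular YAP target gene (1.29 and 1.35), Scgb1a1 (1.27 and 1.51), Inmt, an indolethylamine methyltransferase gene (1.88 and 1.15), and Lrg1, a leucine-rich glycoprotein gene (1.09 and 1.65). By the SD of log2(CPM + 1) in place of the CV, the excess of Inmt was negative (-0.33). Ager fell from 1.23 and 1.53 to 0.10 and 0.18, and Cyp4b1, a cytochrome P450 gene, from 1.92 and 1.75 to 0.47 and 0.50. Cav1, Pmp22, Col4a3 and Cavin2 no longer met the level and detection filter. Cyp2b10 (0.99 and 1.09) and Sec14l3 (0.10 and 0.61) fell below 1 on at least 1 plate, as Anxa1 and Timp3, the next widest, had been from the start.

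Lrg1 and Ccn1 show what a wide spread looked like over all cells. Lrg1 ranged over 0, 164 and 3722 CPM on plate 4 and over 0, 183 and 9208 CPM on plate 5, and Ccn1 over 0, 11.6 and 3652 CPM and over 0, 45.8 and 4687 CPM. The 10 narrowest genes, by the larger excess of both plates, held 6 genes of the respiratory chain or ATP synthase: Ndufa3 (-1.45 and -1.13), Ndufb4, Atp5e, Uqcr10, Atp5mpl and Cox7a2. The others were Tma7, Rnaset2a and the pseudogenes Cd63-ps (-1.59 and -1.66) and Gpx4-ps2 (-1.25 and -1.50), entries that may take reads from their parent genes. All 10 lay toward the lower end of the levels compared, whose limit was 50 CPM. The share of respiratory chain and ATP synthase genes among all genes compared was not counted, so the 6 are a description only.

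**Figure D4:**
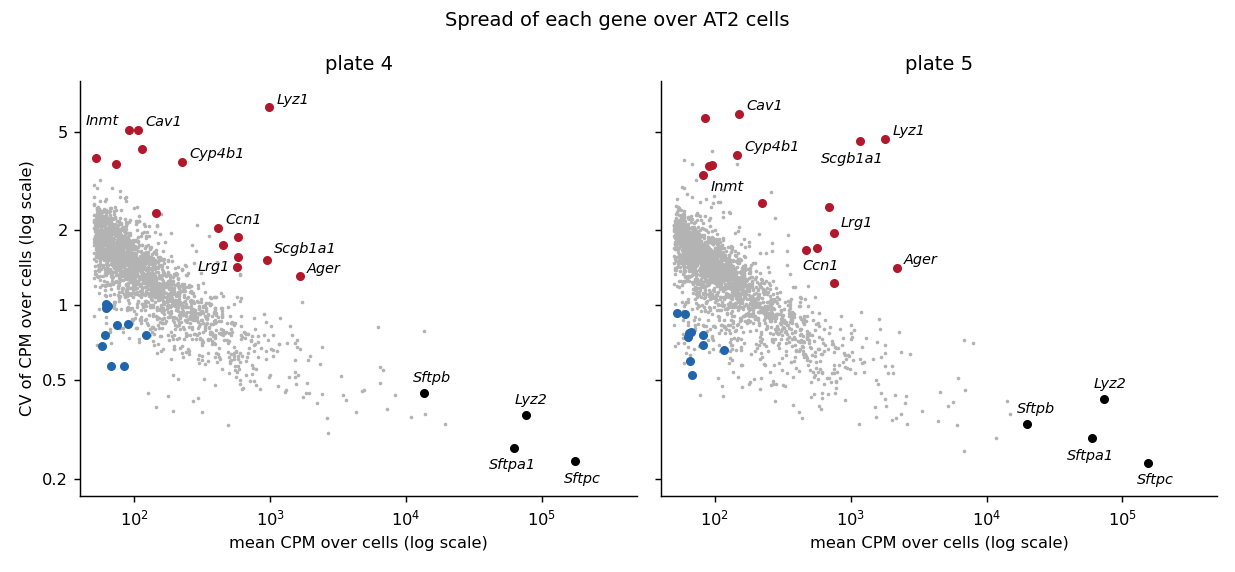
CV of CPM over cells against mean CPM, both on log scales, for 2197 genes on plate 4 and plate 5: red points are the 15 widest genes, blue the 10 narrowest, black 4 abundant AT2 genes and grey all others. Lyz1 stands highest above the trend on both plates (CV 6.27 and 4.69), and Scgb1a1 rises on plate 5 to 4.57 through well F11.

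Genes that varied together were sought among 2131 genes at 50 CPM or more with a read in at least 50% of cells of each plate. Spearman rho was taken over the 60 cells of plate 4 and, separately, the 89 of plate 5. Cells of a plate share handling and differ in depth, and all CPM values of a cell share 1 total. Of 2269515 pairs, 48 (0.00211%) reached 0.5 on both plates, 0 (0%) reached -0.5, and the median pair had 0.016 and 0.017. Most of the 48 were pairs of organelle genes or copies: 34 joined mitochondrial genes or their nuclear copies, 7 a gene and a near-identical copy, and 3 a mitochondrial gene or copy and CT010467.1.

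The 4 pairs of distinct nuclear genes left were Fabp5 with Scd1, Fos with Egr1, Npc2 with Dbi, and Cxcl15 with Gm43085, an entry that starts 194 bases after the Cxcl15 end on chromosome 5 and could share its reads. Fabp5, a fatty acid carrier gene, and Scd1 had rho 0.59 on plate 4 and 0.52 on plate 5. Npc2 and Dbi, the acyl-CoA-binding protein gene, had 0.52 and 0.54. Fos and Egr1, immediate early transcription factor genes, had 0.59 and 0.52. After thinning to 100000 reads the smaller rho of these 3 was 0.51 to 0.53. Without the cells set apart Npc2 with Dbi had 0.4988 on plate 4, just under the limit, while the other pairs kept 0.51 or more on both plates. As Pearson r of log2(CPM + 1), the smaller value of both plates was under 0.5 for all 3: 0.49 for Fabp5 with Scd1, 0.43 for Npc2 with Dbi and 0.40 for Fos with Egr1.

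Below the limit of 0.5 the next pairs, named after their values were seen, involved some of the same genes. Scd1 with Lrg1 had 0.43 and 0.60, Npc2 with Lrg1 0.43 and 0.54, Npc2 with Scd1 0.43 and 0.49, and Lcn2, the lipocalin 2 gene, with Lrg1 0.45 and 0.46. Cxcl15 varied with Chil1 (0.52 and 0.49) and with Scp2, a sterol carrier gene (0.49 and 0.46), and Scgb1a1 with Dbi (0.52 and 0.47). Among 4 class II genes no pair reached 0.5 on both plates: Cd74 with H2-Ab1 had 0.48 and 0.66, Cd74 with H2-Aa 0.46 and 0.69, H2-Ab1 with H2-Eb1 0.38 and 0.50, and Cd74 with H2-Eb1 0.22 and 0.46. The class I pair B2m and H2-D1 had 0.49 and 0.55.

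Lipid genes had weak negative values with class II genes. Scd1 had -0.19 and -0.19 with Cd74 and -0.25 and -0.30 with H2-Ab1, and Npc2 had -0.39 and -0.10 with Cd74. Among pairs of genes that the naming rule allows, the lowest was Scgb1a1 with H2-Ab1, at -0.48 and -0.44, and Scgb1a1 with H2-Aa had -0.38 and -0.40. These ranks of Scgb1a1, as those with Dbi, include the many cells at or below the ciliated level given above. H3f3b with Cox8a had -0.48 and -0.43. None of these reached -0.5 on both plates.

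**Figure D5:**
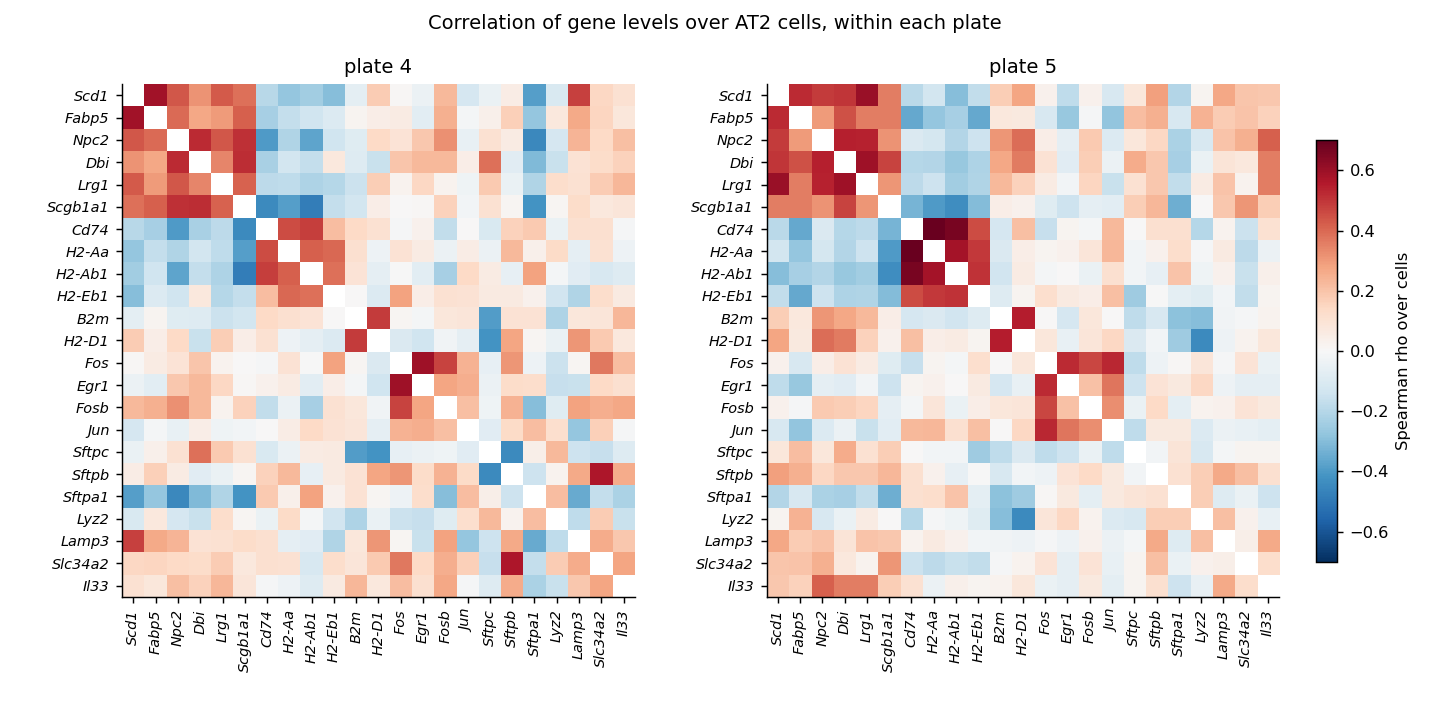
Spearman rho of CPM over the 60 AT2 cells of plate 4 and the 89 of plate 5 between 23 genes chosen after their values were seen; red is positive, blue negative. Lipid genes with Lrg1 and Scgb1a1, class II genes, B2m with H2-D1, and Fos with Egr1 and Fosb stand in red blocks, some of whose pairs are weak, while the AT2 markers at the lower right do not.

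The promoters of 2 genes of the immediate early set and 2 of the class II set are shown because the genes shown had positive rho on both plates and each set has a classical promoter word. For Fos (plus strand, chr12:85473640-85473889) and Fosb (minus strand, chr7:19310046-19310295), which had rho 0.47 and 0.47, the capitals mark TGACG, the core of the cAMP response element.
Fos: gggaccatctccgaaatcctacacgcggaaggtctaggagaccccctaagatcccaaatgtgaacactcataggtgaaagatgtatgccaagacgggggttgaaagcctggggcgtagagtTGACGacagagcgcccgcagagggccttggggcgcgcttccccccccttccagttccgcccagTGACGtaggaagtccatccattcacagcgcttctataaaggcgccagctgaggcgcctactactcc
Fosb: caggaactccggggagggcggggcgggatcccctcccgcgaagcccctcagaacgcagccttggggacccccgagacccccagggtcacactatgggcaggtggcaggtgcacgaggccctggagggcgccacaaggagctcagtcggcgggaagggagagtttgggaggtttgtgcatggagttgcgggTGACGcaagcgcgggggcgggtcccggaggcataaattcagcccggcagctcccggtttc
TGACG stood at 66 to 62 bases before the Fos start, with a second copy further upstream in capitals, and at 60 to 56 before the Fosb start. It or its reverse complement CGTCA occurred in 17.8% of the 32851 windows of this length that were counted. For H2-Aa (minus strand, chr17:34287824-34288073) and H2-Eb1 (plus strand, chr17:34305617-34305866), which had rho 0.40 and 0.49, the capitals mark CCAAT or its reverse complement ATTGG, the core of the Y box.
H2-Aa: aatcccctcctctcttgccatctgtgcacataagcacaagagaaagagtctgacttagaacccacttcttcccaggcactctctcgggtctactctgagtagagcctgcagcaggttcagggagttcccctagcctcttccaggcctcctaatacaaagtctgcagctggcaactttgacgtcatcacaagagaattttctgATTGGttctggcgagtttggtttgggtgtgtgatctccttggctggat
H2-Eb1: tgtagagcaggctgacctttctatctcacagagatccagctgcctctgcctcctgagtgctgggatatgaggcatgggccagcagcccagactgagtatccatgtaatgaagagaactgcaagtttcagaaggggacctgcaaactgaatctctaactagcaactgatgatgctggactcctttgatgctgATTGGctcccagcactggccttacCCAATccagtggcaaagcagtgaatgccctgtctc
ATTGG stood at 48 to 44 bases before the H2-Aa start and at 59 to 55 before that of H2-Eb1, which also had CCAAT at 35 to 31. One of these words occurred in 33.8% of the same windows.

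The markers that define the type did not form a set of their own. Among Sftpc, Lyz2, Lamp3, Slc34a2 and Il33 no pair exceeded 0.28 on either plate. Ordered by the smaller rho of both plates, the first partners were Jund for Sftpc (0.33 and 0.28), Cxcl15 for Lyz2 (0.36 and 0.38), Tmem243 for Lamp3 (0.32 and 0.33), Anpep for Slc34a2 (0.31 and 0.30) and Atp6v1g1 for Il33 (0.37 and 0.36), all weak. On plate 4 alone Slc34a2 had 0.57 with Sftpb and Lamp3 had 0.48 with Scd1, against 0.21 and 0.27 on plate 5. Of the surfactant pairs, Sftpa1 with Sftpd, neighbouring collectin genes on chromosome 14, had 0.40 and 0.39, whereas Sftpc with Sftpb had -0.44 on plate 4 and -0.02 on plate 5. Sftpc was lower in cells with more genes detected, with rho -0.47 and -0.41. Its lowest partners were Rasgef1b (-0.43 and -0.46) and the AT1 marker Clic5 (-0.37 and -0.38; -0.28 and -0.32 without the cells set apart).

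Between summed lists, 0 of 549 pairs without a shared gene reached 0.5 in size on both plates. Fatty acid with sterol synthesis had 0.38 and 0.41, and the AT2 markers had -0.41 and -0.41 with the growth factor and Wnt list. Both are weak.

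The plates were compared by pooled CPM with 1 CPM added, calling a gene at a 2-fold difference with 50 CPM or more on the higher plate. Of 2980 genes, 1.58% (47 genes) were higher on plate 4 and 4.56% on plate 5, with a median log2 ratio of plate 4 to plate 5 of -0.07. With 10 CPM added in place of 1 the shares were 1.01% and 2.48%. With 1 set of cells per plate, plate, library preparation and animal cannot be told apart. The genes called were sparser than the rest: on the higher plate a median of 59.6% of cells had a read for them against 75% for all genes compared, and their median pooled level was 49.99 against 80.8 CPM.

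None of the 5 markers was called. Their log2 ratios were 0.17 for Sftpc, 0.11 for Lyz2, -0.12 for Slc34a2, -0.29 for Lamp3 and -0.56 for Il33. Of 230 list members compared, 2 (0.87%) were higher on plate 4 and 17 (7.39%) on plate 5, beside 1.58% and 4.56% of all genes compared. Those on plate 4 were Klf2, a shear- and quiescence-linked factor gene (1.83), and Pdia4, a disulfide isomerase gene (1.15). Those on plate 5 included Lpin1, a phosphatidate phosphatase gene (-1.77), Tsc22d3, a glucocorticoid-induced gene (-1.36), Elf3, an epithelial factor gene (-1.34), Socs3, a cytokine feedback inhibitor gene (-1.27), Krt19 (-1.25), Erbb2 (-1.20) and Insig1, a sterol sensor gene (-1.12). Lpin1 nevertheless had a read in more cells of plate 4 (53.3%) than of plate 5 (46.1%), with highest cells of 225 and 875 CPM. The heat shock list had the lowest median among lists with more than 1 gene compared (-0.65 over 11 genes). The median over all genes compared was -0.07. The list is named as the extreme of many, after the values were seen. Its members Dnajb4 (-1.34), Bag3 (-1.25) and Hspa1b (-1.02) were called.

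Single cells lay behind some of the largest ratios. Retnla, a resistin-like gene of airway secretory cells, had a log2 ratio of -2.29, and 1 cell held 90.8% of its plate 5 reads. Lrrcc1 had the largest ratio toward plate 4 (3.55), and 5 cells held 74.2% of its plate 4 reads. Arnt, a partner factor in hypoxia and xenobiotic responses, had the largest ratio toward plate 5 (-2.93), at 6.74 CPM pooled on plate 4 and 58.1 on plate 5, with a read in 41.7% and 64.04% of cells.

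Few other cells of the series carried the same annotation. The 6 AT2 cells of BASCs-Tracer had Sftpc at 120846, 144739 and 174080 CPM (lowest, median, highest), within the range of the cells described here, and Scgb1a1 at 591, 1406 and 14599 CPM. The 1 AT2 cell of Scgb1a1-TD, on plate 4, had Sftpc at 192898, Scgb1a1 at 1345 and Il33 at 96.6 CPM. The 11 Sftpc-TD cells annotated BASCs, the bronchioalveolar stem cells that carry both secretory genes, had Sftpc at 64715, 167635 and 224568 and Scgb1a1 at 112.7, 2531 and 130015 CPM. Their ranges overlapped those of the AT2 cells for both genes, and no test was made between sets of cells with no named animal. Xist, a gene expressed in female cells, stood at 218 CPM pooled in the AT2 cells described here (lowest 0, median 159). Its median was 0 CPM in the 6 AT2 cells of BASCs-Tracer (highest 10.3) and in the 24 ciliated cells (highest 482). The 1 AT2 cell of Scgb1a1-TD had 0.805 CPM, and the 11 Sftpc-TD BASCs had a median of 85.9 CPM. Whether the lines differed in sex or animal was not tested.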

How the data were processed

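Single sorted cells were sequenced after PCR amplification, with no molecular identifiers described in the labels' protocols, and the authors deposited 1 table of raw read counts per gene and cell. Reads were aligned with HISAT2 to GRCm38 and counted with HTSeq, per the submitters' processing notes; not given in the sources used here were their versions, strandedness and the treatment of reads with several matches. Of its columns 326 were used through their names and 154 were not used; the header lies 1 place to the left of the values and was read so. The table lists 53379 genes, 53274 of them with a symbol and 159 sharing one.

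From these deposited counts, CPM, detection at full depth and after thinning each cell to 100000 reads, CV with a lowess trend (fraction 0.3), Spearman rho within plates and pooled plate ratios were computed with Python 3.11.15, numpy 2.4.6, pandas 2.3.3, scipy 1.17.1 and statsmodels 0.14.6; the code was tested on simulated data. Intervals are exact Poisson or Clopper-Pearson at 95%. The replicate would be the animal, and none is named, so no test across genes was run.

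The 30 gene lists (501 entries, 1 without a match) and all rules were chosen with earlier results of these data known. Genes named are the 5 given markers, Scgb1a1, the 20 with the highest pooled CPM, up to 4 leading members per list, the 15 widest and 10 narrowest in spread, 10 intermittent genes, the 15 highest pairs, the markers' partners and the 10 largest plate ratios each way; other genes were chosen after their values were seen. Mitochondrial, ribosomal protein and numbered entries were summed or left unnamed, and a few genes that the rule names are not reported here. Alternatives changed the scaling, filters, depth, limits and cells used.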

Additional observations from a re-analysis of the deposited data

How the results depend on the processing

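No paired analysis was possible because each group is 1 set of cells and no result comes from a test. Pooled Sftpc was 162105 CPM as a mean over cells, 162335 with median-of-ratios scaling over 232 genes, 265978 with totals that leave out mitochondrial genes and the 10 highest genes, 173508 on plate 4, 154054 on plate 5 and 163360 without the 8 cells set apart, an alternative chosen after seeing the data. Genes seen in every cell went from 0.274% of those listed to 40 genes when 5 reads were asked for, and to 232 genes without the cell of 3379 reads, also chosen after seeing the data. The 13 widely spread genes became 5 by the SD of log2(CPM + 1), 20 with a filter at 10 CPM and 10% of cells, and 5 without the cells set apart. By that SD the excess turned negative for Cav1 (-0.31), Cyp4b1 (-0.090), Pmp22 (-0.0041), Col4a3 (-0.099), Inmt (-0.33) and Cavin2 (-0.33). Pairs at 0.5 or more on both plates, 0.00211% of all, became 0.00128% after thinning, 0.00524% at a limit of 0.4 and 0.000793% at 0.6, and the 0% of negative pairs became 0.000308% at 0.4. Calls higher on plate 4 and plate 5 went from 1.58% and 4.56% of genes compared to 1.01% and 2.48% (30 and 74 genes) with 10 CPM added and to 2045 and 2765 genes with no filter on low genes. Beside these, 9 alternative values of excess spread, 12 of 180 of plate ratios and 11 of rho moved by more than 1.5 times or, for rho, by more than 0.1; only 30 of 161 pooled CPM values stayed within the counting interval, which is very narrow at this depth. The cause of these moves was not tested. Depth limits genes near 1 read per cell, and levels of genes with near-identical copies are uncertain.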
